A study of Homo sapiens with 18 samples.

Results

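The data described here are the gene-by-gene differences in RNA response to NTX-301 between a pair of human cell lines from acute myeloid leukaemia, MOLM-13 and HL-60. For each gene the change with NTX-301 in MOLM-13 (NTX-301 minus vehicle) was set against the same change in HL-60, and the difference of the 2 changes is the quantity reported throughout. It is positive where the gene ended relatively higher in MOLM-13 and negative where it ended relatively higher in HL-60. The comparison used 12 of the 18 samples of the series, 3 in each of 4 groups: HL-60 with the vehicle DMSO, HL-60 with NTX-301, MOLM-13 with DMSO and MOLM-13 with NTX-301, all taken at 48 hours. HL-60 is stated to have received 30 nM and MOLM-13 15 nM. The labels leave unclear if these doses apply to NTX-301 or to decitabine (DAC) alone, the drug of the other 6 samples. Line and stated dose therefore cannot be told apart in anything below. Both lines grew in RPMI1640 with 10% fetal bovine serum, and RNA was made into stranded total RNA libraries, which also hold RNAs without a poly(A) tail. Each line stands for 1 leukaemia, and the triplicate wells are not described as separate cultures, so the p-values measure the spread between these samples, which may be technical.

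Members were the gene symbols present in the files of both lines, 15517 in all, each with the same NCBI Gene ID in both, and 15474 of them passed a filter on low values and were tested. Another 1593 symbols occurred in the HL-60 files alone and 1958 in the MOLM-13 files alone, and for these no difference could be formed. CDKN1A, HOXA9 and MEIS1 were among the genes listed for MOLM-13 alone, and KIT and CDKN2A among those listed for HL-60 alone. The lines carried the markers of their labels in part. MPO, the myeloperoxidase of promyelocyte granules, averaged 18.7 on the deposited log2 scale in HL-60 with DMSO and 13 in MOLM-13 with DMSO, and FLT3, the receptor tyrosine kinase that is mutated in MOLM-13, averaged 11.8 and 15.2, although levels are not on one scale between the lines. HOXA10 (6.49 and 11.1) and PBX3 (7.55 and 12.7) went with FLT3. The other granule genes set as HL-60 markers mostly did not go with MPO. ELANE (14.3 and 14.9), PRTN3 (16.1 and 16.9) and AZU1 (12.8 and 14.9) were higher in MOLM-13 with DMSO, and CTSG (13.7 and 13.4) was slightly higher in HL-60. The myeloid genes CD33, SPI1, CEBPA, PTPRC and LYZ were present in both. Markers of T cells, B cells, red cells, platelets, epithelium and fibroblasts were mostly listed in neither line, and those listed for MOLM-13 alone (CD3D, HBB, HBA1, HBA2, KRT18 and COL1A1) averaged 5.82 to 9.33 with DMSO and 6.05 to 9.34 with NTX-301. Of these KRT18 had 9.33 and 9.34 and the other 5 had higher means with NTX-301, such as HBB with 8.62 and 8.98. The B cell marker CD79A, listed for HL-60 alone, averaged 6.43 with DMSO and 6.83 with NTX-301. The part of these markers in the results was not tested. Depth is unknown, because the files hold log2 values and no counts.

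NTX-301 is an orally given inhibitor of the DNA methyltransferase DNMT1, the enzyme that copies CpG methylation onto newly made DNA. Drugs of this kind act in cells that replicate, where they remove the enzyme, lower methylation over successive divisions and can damage DNA. DNA damage is known to induce cell cycle inhibitors such as p21, death receptors and the ubiquitin ligase MDM2. Induction of p21 is known to lower cell cycle genes through the DREAM repressor complex, which binds a short promoter element called the cell cycle genes homology region (CHR). HL-60 is a promyelocytic line, and MOLM-13 is a monocytic line with a KMT2A fusion.

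Because genes of mitosis moved together, the 250 bases before the RefSeq gene start (GRCh38.p14) were searched on both strands for the CHR, TTTGAA, and for the CCAAT box, CCAAT. Neither motif contains the other. A CHR stood in 16 of 29 G2 and mitosis genes with a window (55.2%), in 1 of 34 replication genes (2.94%, RRM1) and in 13.6% of the 27305 windows of all genes. A CCAAT box stood in 24 of the same 29 windows (82.8%), in 37 of 45 windows of replication-dependent histone genes (82.2%) and in 33.0% of all windows. A match describes the letters of a window and is not a measured binding site. PRC1 and TOP2A, the mitotic genes with the lowest adjusted p, and PLK1, a mitotic kinase chosen after its values were seen, are shown with the CHR in capitals on either strand. PRC1 lies on the minus strand at chr15:90994536-90994785, TOP2A on the minus strand at chr17:40417897-40418146 and PLK1 on the plus strand at chr16:23678639-23678888.
PRC1: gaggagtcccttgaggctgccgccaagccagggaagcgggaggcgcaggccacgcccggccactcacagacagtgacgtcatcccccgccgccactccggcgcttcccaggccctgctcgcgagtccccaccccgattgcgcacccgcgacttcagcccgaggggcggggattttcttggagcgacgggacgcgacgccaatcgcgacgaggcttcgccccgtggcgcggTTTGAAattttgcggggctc
TOP2A: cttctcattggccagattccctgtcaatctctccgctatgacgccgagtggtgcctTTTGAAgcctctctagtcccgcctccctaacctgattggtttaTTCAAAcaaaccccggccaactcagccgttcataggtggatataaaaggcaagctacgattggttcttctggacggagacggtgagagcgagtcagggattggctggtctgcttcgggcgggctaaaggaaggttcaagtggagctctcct
PLK1: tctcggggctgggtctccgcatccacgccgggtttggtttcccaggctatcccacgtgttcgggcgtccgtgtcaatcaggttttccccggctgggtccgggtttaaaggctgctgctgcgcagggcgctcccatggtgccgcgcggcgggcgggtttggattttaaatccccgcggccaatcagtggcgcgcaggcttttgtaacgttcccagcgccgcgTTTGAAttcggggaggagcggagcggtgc

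The NTX-301 response differed between the lines for 6185 of the 15474 genes tested, 40.0% (limma, adjusted p under 0.05). The change was higher in MOLM-13 for 2716 genes (17.6%) and lower in MOLM-13 for 3469 (22.4%). With samples quantile normalized within each line the split was even, with 2950 higher and 2946 lower. Most of these differences were small. Their median size was 0.22 on the log2 scale, 394 were at least 0.5 in size (173 higher and 221 lower) and 21 were at least 1 (9 higher and 12 lower). Over all genes tested the median difference was -0.0041. Genes with higher values were called more often, from 15.8% of those with a mean log2 value under 5 in the lower line to 55.9% of those at 11 and above. The 2 ends also leaned in opposite directions, with 325 higher and 91 lower calls among the weakest genes and 906 higher and 2002 lower among the strongest. This lean depended on scaling. Among protein-coding genes the calls at 11 and above were 874 higher and 1981 lower, or 1347 and 1442 with quantile normalization, and those under 5 turned from 82 higher and 55 lower to 51 and 78.

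**Figure D1:**
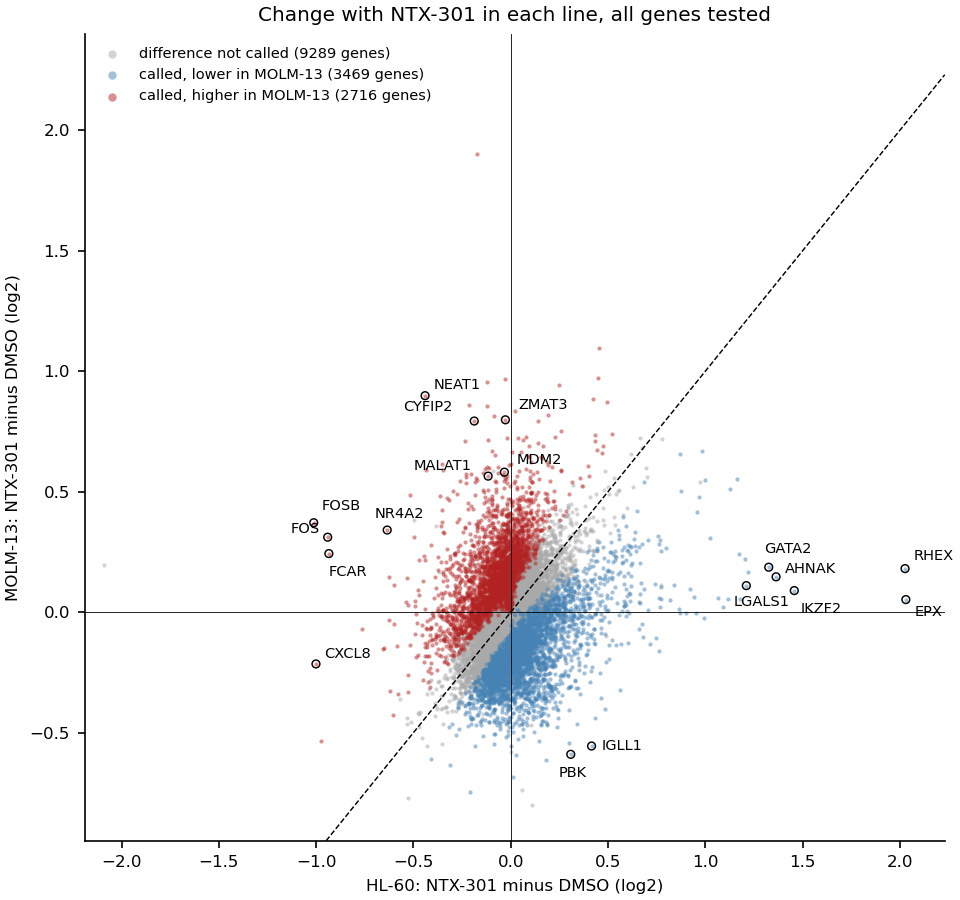
Change with NTX-301 in HL-60 (horizontal) against the change in MOLM-13 (vertical), both as NTX-301 minus DMSO on the log2 scale, for the 15474 genes tested, each point 1 gene and the dashed line equal change. Blue genes, called lower in MOLM-13, reach far to the right along the zero line of MOLM-13 (EPX, RHEX), and red genes, called higher in MOLM-13, spread upward and to the left (NEAT1, FOSB).

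To describe the shape of these differences, each called gene was sorted by the NTX-301 change in the 2 lines of the same fit, where the share of tested genes that passed was 33.9% for HL-60 and 54.3% for MOLM-13. The largest forms were genes that passed in MOLM-13 alone, 1626 of them down and 1449 up. Another 579 passed in HL-60 alone and were up, and 537 passed in HL-60 alone and were down. In 984 genes the 2 lines moved in opposite directions: 592 fell in MOLM-13 and rose in HL-60, and 392 rose in MOLM-13 and fell in HL-60. Opposite movement made up 15.9% of all called differences. Among the 394 differences of at least 0.5, 138 genes (35.0%) fell in MOLM-13 and rose in HL-60, and 83 (21.1%) did the reverse.

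The genes of cell division moved together. All 41 replication genes tested, all 35 genes of G2 and mitosis and 48 of 49 replication-dependent histone genes passed the test with a lower change in MOLM-13, as 22.4% of all genes did, with median differences of -0.47, -0.51 and -0.48. In each list the median change was upward in HL-60 (0.12, 0.18 and 0.14) and downward in MOLM-13 (-0.34, -0.34 and -0.34). Averaged over the G2 and mitosis genes, the 3 HL-60 samples with NTX-301 stood 0.15, 0.16 and 0.17 above the HL-60 DMSO mean and the 3 MOLM-13 samples with NTX-301 stood at -0.32, -0.34 and -0.36 against their own DMSO mean. The DMSO samples themselves lay between -0.027 and 0.023. In bulk RNA such a shift cannot tell fewer dividing cells from less of these RNAs per cell. With samples quantile normalized within each line, the medians of the replication, G2 and mitosis, and histone lists were -0.40, -0.44 and -0.40, with the same counts of calls.

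TOP2A, the topoisomerase that untangles sister chromatids, measured 15.44, 15.43 and 15.41 in HL-60 with DMSO and 15.62, 15.63 and 15.63 with NTX-301. In MOLM-13 it measured 15.54, 15.61 and 15.61 with DMSO and 15.26, 15.26 and 15.22 with NTX-301. The treated and control samples did not overlap in either line and moved in opposite directions, a difference of -0.54 ± 0.033 (SE, adjusted p = 6.7e-10). PRC1, which bundles the microtubules of the central spindle, went from 13.29, 13.30 and 13.28 to 13.39, 13.41 and 13.43 in HL-60. In MOLM-13 it went from 13.38, 13.43 and 13.38 to 12.99, 13.02 and 13.01, a difference of -0.51 ± 0.027 (adjusted p = 1.2e-10). The other G2 and mitosis genes spanned from -0.71 for CENPA, the centromeric histone H3 variant, to -0.29 for CDC20, the activator of the anaphase-promoting complex. CDK1, the mitotic kinase, had -0.68, its cyclin CCNB1 -0.61, the kinases AURKA -0.59 and PLK1 -0.38, and the proliferation antigen MKI67 -0.44. The 35 genes did not differ in the sign of the difference, though CDC20, BUB1B and CKS2 had changes of -0.02, -0.04 and -0.08 in HL-60 where the other 32 had positive values.

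The replication genes showed the same arrangement. MCM3, a subunit of the replicative helicase, measured 14.53, 14.54 and 14.60 in HL-60 with DMSO and 14.70, 14.72 and 14.74 with NTX-301. In MOLM-13 it measured 14.74, 14.75 and 14.73 with DMSO and 14.36, 14.33 and 14.34 with NTX-301. Every treated HL-60 sample was above its controls and every treated MOLM-13 sample below, a difference of -0.56 ± 0.029 (adjusted p = 9.0e-11). MCM4, another helicase subunit, differed by -0.49 ± 0.026. CDC45, which completes the active helicase, had the lowest value of the list at -0.65 and POLA1, the catalytic subunit of the primase-polymerase, the value nearest 0 at -0.28. The nucleotide enzymes on the list divided their difference unequally between the lines: RRM2, of ribonucleotide reductase, changed by 0.34 (HL-60) and -0.15 (MOLM-13), and TYMS, thymidylate synthase, by 0.38 and -0.02. E2F2, an activating E2F factor and 1 of the 15 genes with the lowest differences, measured 9.95, 10.02 and 10.00 in HL-60 with DMSO and 10.84, 10.76 and 10.65 with NTX-301. In MOLM-13 it went from 11.12, 11.21 and 11.22 to 11.04, 11.01 and 11.01, a difference of -0.92 ± 0.054 (adjusted p = 3.8e-10). PBK, a mitotic kinase that was on none of the lists, went from 9.60, 9.59 and 9.59 to 9.85, 9.94 and 9.92 in HL-60 and from 12.51, 12.60 and 12.55 to 12, 11.98 and 11.92 in MOLM-13. Its difference was -0.90 ± 0.044 (adjusted p = 5.8e-11).

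Replication-dependent histone genes make the bulk histones of S phase, and their transcripts, which lack a poly(A) tail, are retained in total RNA libraries. H2BC17 measured 13.76, 13.76 and 13.84 in HL-60 with DMSO and 14, 13.98 and 14.07 with NTX-301. In MOLM-13 it measured 13.66, 13.74 and 13.69 with DMSO and 13.37, 13.30 and 13.31 with NTX-301, a difference of -0.60 ± 0.044 (adjusted p = 4.5e-09). The groups did not overlap in either line. H2BC3 was the exception, with a difference of -0.03 that did not pass the test. Values of single histone genes are uncertain because near-identical copies can share reads, as with H4C14 and H4C15 at -0.62 each. Among 33 genes of homologous recombination and the Fanconi pathway 28 were lower in MOLM-13 and none higher (median -0.31), against 22.4% and 17.6% of all genes. EXO1, an exonuclease that resects broken ends, had the lowest value at -0.66 ± 0.039 (adjusted p = 4.1e-10), FANCI had -0.50 and BRCA1 -0.39, while ATR, ATRIP and FANCA lay between -0.04 and -0.03 and did not pass.

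**Figure D2:**
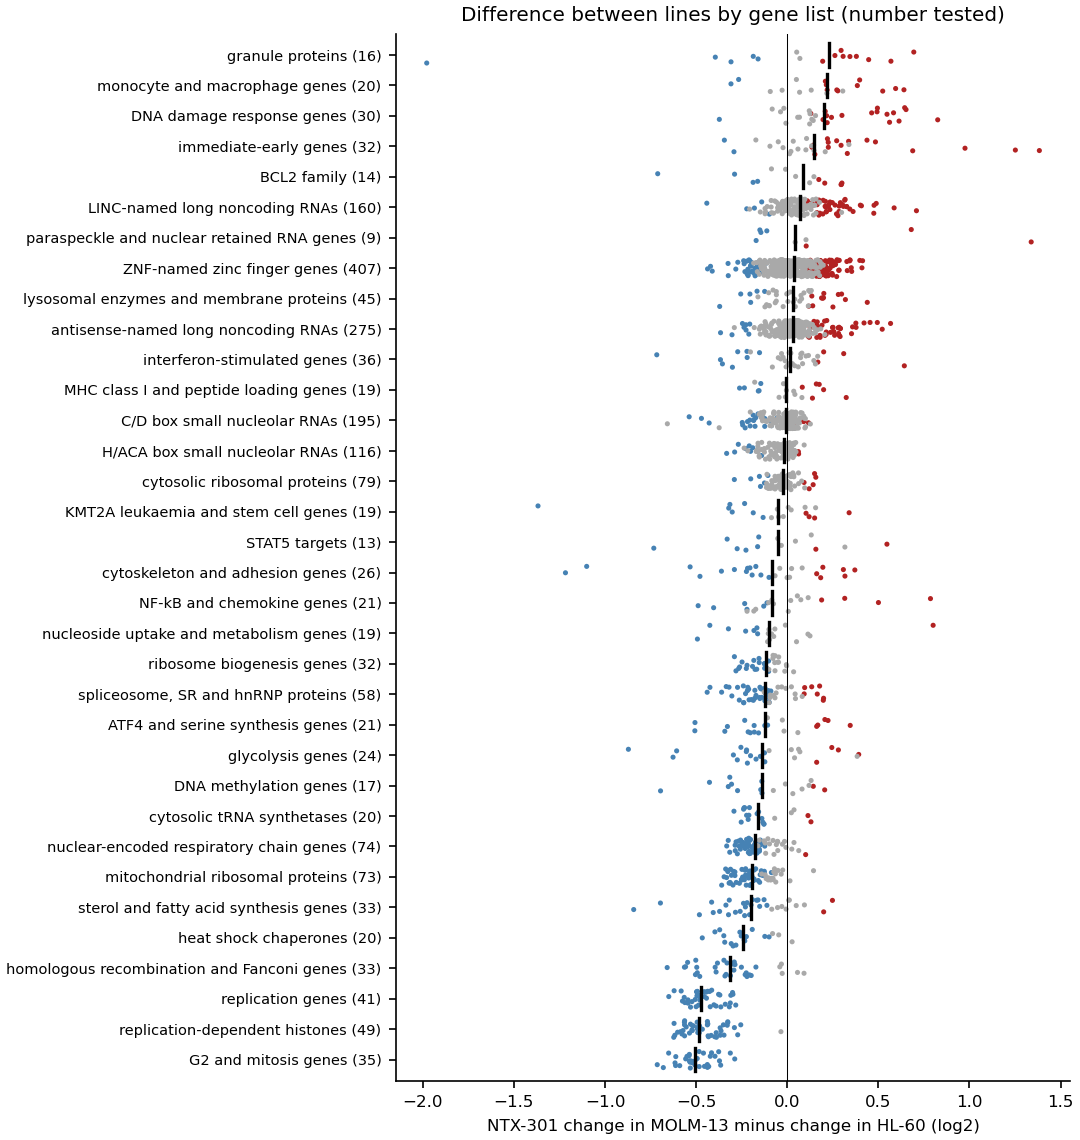
Difference between lines (NTX-301 change in MOLM-13 minus change in HL-60, log2) for every tested member of the gene lists with at least 9 tested members, sorted by median, with the list median as a black bar. Points are genes, blue where called lower in MOLM-13, red where called higher and grey where not called, and the G2 and mitosis, histone and replication lists lie wholly below 0.

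A chosen list of genes that DNA damage can induce, other than that of recombination and Fanconi genes, went the other way. Damage itself was not measured, and these genes are only a part of the response to it. Of 30 tested, 17 were called higher in MOLM-13 and 1 lower, against 17.6% and 22.4% of all genes, with a median difference of 0.20 made of a median change of 0.0043 in HL-60 and 0.25 in MOLM-13. Averaged over the list, the treated MOLM-13 samples stood 0.27, 0.28 and 0.29 above their DMSO mean, and the treated HL-60 samples 0.016, 0.018 and 0.030 above theirs. ZMAT3, an RNA-binding protein induced by DNA damage, measured 10.51, 10.46 and 10.43 in HL-60 with DMSO and 10.43, 10.47 and 10.42 with NTX-301. In MOLM-13 it measured 12.22, 12.36 and 12.30 with DMSO and 13.09, 13.11 and 13.08 with NTX-301. The HL-60 groups overlapped and the MOLM-13 groups were well apart, a difference of 0.83 ± 0.048 (adjusted p = 3.8e-10). MDM2 went from 13.10, 13.08 and 13.07 to 13.03, 13.10 and 13.03 in HL-60. In MOLM-13 it went from 15.11, 15.12 and 15.09 to 15.67, 15.70 and 15.69, a difference of 0.61 ± 0.033 (adjusted p = 1.2e-10).

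The called DNA damage response genes covered several arms of the response. The growth arrest gene GADD45A differed by 0.64. SESN2, which restrains mTORC1, differed by 0.58, and FDXR, the mitochondrial ferredoxin reductase, by 0.56. The death receptors TNFRSF10B and FAS had 0.55 and 0.49, and the pore-forming BAX 0.30. BBC3, another death gene, changed by 0.16 (HL-60) and 0.29 (MOLM-13) and its difference of 0.12 did not pass. BTG2, an antiproliferative gene, was the 1 member called lower in MOLM-13, with changes of 0.88 in HL-60 and 0.50 in MOLM-13. CYFIP2, a subunit of the actin-nucleating WAVE complex and not a member of the list, measured 9.78, 9.78 and 9.70 in MOLM-13 with DMSO and 10.58, 10.55 and 10.51 with NTX-301. In HL-60 it went from 11.40, 11.31 and 11.35 to 11.19, 11.18 and 11.13, a difference of 0.98 ± 0.051 (adjusted p = 9.0e-11). CDKN1A, which encodes p21, had no value in the HL-60 files and is not compared here.

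**Figure D3:**
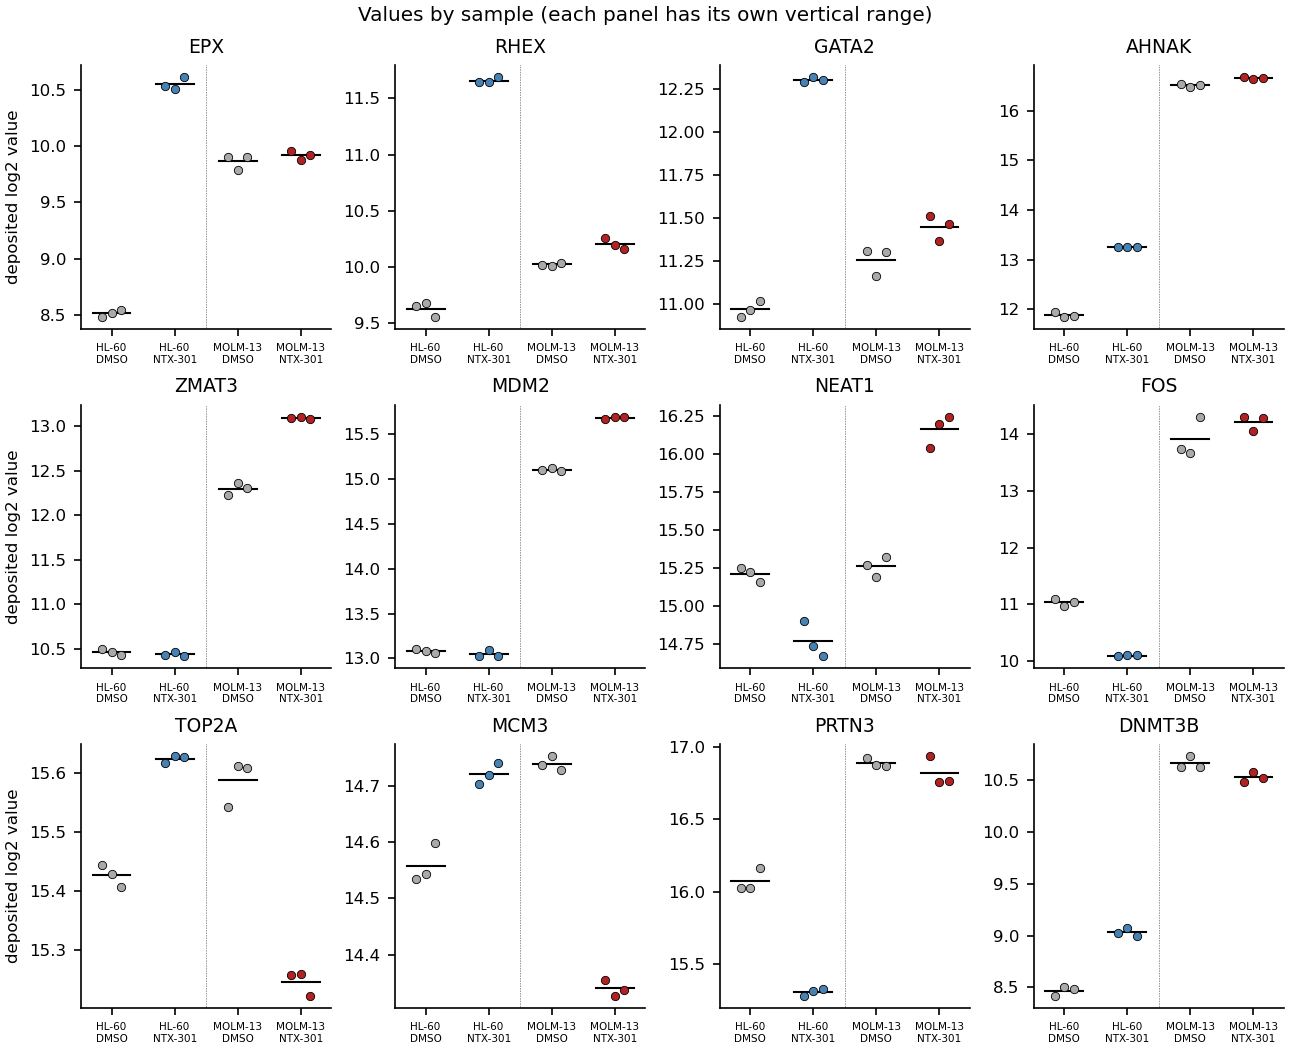
Deposited log2 values of 12 genes in each of the 12 samples, 3 points for each of the 4 groups with the group mean as a line, on a vertical range set for each panel. EPX, RHEX, GATA2 and AHNAK differ mainly between the HL-60 groups, ZMAT3 and MDM2 between the MOLM-13 groups, and TOP2A and MCM3 move up in HL-60 and down in MOLM-13.

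The lowest differences kept by the naming rule, which leaves out readthrough, ribosomal RNA, LOC and small nucleolar RNA genes and genes of low or unstable value, were of genes that rose in HL-60. EPX, the peroxidase of eosinophil granules, measured 8.49, 8.52 and 8.55 in HL-60 with DMSO and 10.53, 10.50 and 10.61 with NTX-301. In MOLM-13 it measured 9.90, 9.79 and 9.91 with DMSO and 9.95, 9.88 and 9.92 with NTX-301. The HL-60 groups lay far apart and the MOLM-13 groups overlapped, a difference of -1.98 ± 0.057 (adjusted p = 3.1e-14). RHEX, a regulator of erythroid cell expansion, went from 9.66, 9.68 and 9.56 to 11.64, 11.64 and 11.69 in HL-60. In MOLM-13 it went from 10.02, 10.01 and 10.04 to 10.26, 10.20 and 10.16, apart from its controls by a much smaller step, and the difference was -1.85 ± 0.064 (adjusted p = 2.0e-13). GATA2, a transcription factor of blood stem cells, mast cells and the eosinophil and megakaryocyte lineages, went from 10.93, 10.97 and 11.02 to 12.29, 12.32 and 12.30 in HL-60. In MOLM-13 it went from 11.31, 11.17 and 11.30 to 11.51, 11.37 and 11.46, so that both lines rose and HL-60 rose more, a difference of -1.14 ± 0.059 (adjusted p = 9.0e-11). IKZF2, which encodes the transcription factor Helios, went from 11.20, 11.17 and 11.19 to 12.67, 12.66 and 12.61 in HL-60. It stayed between 6.32 and 6.52 across the 6 MOLM-13 samples, and the difference was -1.37 ± 0.061 (adjusted p = 1.7e-11).

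Several structural and surface genes had the same form. AHNAK, a giant scaffold protein of the cell cortex, went from 11.95, 11.86 and 11.87 to 13.26, 13.26 and 13.25 in HL-60. Its MOLM-13 values went from 16.53, 16.49 and 16.51 to 16.67, 16.63 and 16.66, a difference of -1.22 ± 0.037 (adjusted p = 4.4e-14). LGALS1, galectin-1, went from 7.31, 7.30 and 7.21 to 8.46, 8.44 and 8.56 in HL-60 and from 14.32, 14.37 and 14.36 to 14.49, 14.46 and 14.45 in MOLM-13, a difference of -1.10 ± 0.052 (adjusted p = 3.5e-11). The intermediate filament gene VIM differed by -0.53 and S100A6 by -0.48, and of 26 cytoskeleton and adhesion genes tested 13 were lower and 6 higher in MOLM-13, against 22.4% and 17.6% of all genes. Among the remaining genes with the lowest differences, the steroid transport gene STAR had -1.07, the sialic acid receptor SIGLEC6 -1.05, the lipoprotein gene APOC2 -1, the cytokine receptor IL9R -0.98, the actin-bundling FSCN1 -0.96 and the meiotic cyclin CCNA1 -0.93. All 6 rose in HL-60 by 0.95 to 1.22. In HL-60 the platelet integrin ITGA2B likewise went from 7.89, 7.96 and 7.94 to 8.81, 8.84 and 8.85, against 4.61 to 4.69 in all 6 MOLM-13 samples, and the platelet markers PF4 and GP9 were listed in neither line. IGLL1, the surrogate light chain of early B cells, moved in opposite directions: from 13.37, 13.39 and 13.46 to 13.84, 13.80 and 13.83 in HL-60 and from 9.78, 9.86 and 9.85 to 9.25, 9.22 and 9.35 in MOLM-13. Its difference was -0.97 ± 0.051 (adjusted p = 9.0e-11). Where the values of a gene lie this far apart between the lines, its changes may not be on one footing: genes with a mean under 5 had a median SE of 0.031, less than the 0.072 of genes from 7 to 9, so low values vary little in these files and changes at low levels may be understated.

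Of 16 granule genes tested 9 were higher and 5 lower in MOLM-13, with a median of 0.23, where 17.6% of all genes were higher and 22.4% lower. A higher change in MOLM-13 was called for PRTN3, ELANE, AZU1, CTSG, MPO, BPI and LYZ, enzymes and antimicrobial proteins of neutrophil and monocyte granules. SERPINB1 and SRGN had the same call. These calls compare changes and not levels. The HL-60 means of MPO went from 18.705 to 18.356 and its MOLM-13 means from 13.041 to 12.953. Its call therefore marks a smaller fall in MOLM-13. A lower change in MOLM-13 was called for EPX, CLC, RNASE2 and RNASE3, which are eosinophil and basophil granule genes, and MS4A3. PRG2, another eosinophil granule gene, had 0.07 and was not called. The 5 lower calls became 3 or 4 in each of the 12 fits without 1 sample, and 4 with quantile normalization. They were 3 without HL-60 DMSO replicate 2 or 3 or MOLM-13 DMSO replicate 1. PRTN3, proteinase 3, went from 16.03, 16.03 and 16.16 to 15.28, 15.31 and 15.33 in HL-60 and from 16.92, 16.87 and 16.87 to 16.93, 16.76 and 16.76 in MOLM-13. The HL-60 samples fell clear of their controls while the MOLM-13 groups overlapped, a difference of 0.69 ± 0.066 (adjusted p = 1.4e-07). ELANE, neutrophil elastase, had 0.57, made of -0.47 in HL-60 and 0.09 in MOLM-13. FCAR, the receptor for IgA on myeloid cells, went from 9.32, 9.33 and 9.37 to 8.41, 8.39 and 8.40 in HL-60. In MOLM-13 it went from 7.40, 7.47 and 7.30 to 7.65, 7.54 and 7.72, a difference of 1.18 ± 0.069 (adjusted p = 3.8e-10).

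Monocyte and macrophage genes leaned upward in MOLM-13, with 11 of 20 tested higher, 2 lower and a median of 0.22, where 17.6% of all genes were higher and 22.4% lower. Both lines had positive median changes on this list, 0.16 in HL-60 and 0.32 in MOLM-13. Complement C3 changed by 0.46 in HL-60 and 1.10 in MOLM-13, the integrin ITGAM by 0.43 and 0.71, the costimulatory CD86 by 0.52 and 0.74, and CYBB, the oxidase subunit, by 0.48 and 0.69. ITGAX, the CD11c integrin, went from 9.66, 9.51 and 9.55 to 10.29, 10.27 and 10.24 in MOLM-13 and from 4.56, 4.55 and 4.55 to 4.62, 4.68 and 4.65 in HL-60, a difference of 0.59 ± 0.059 (adjusted p = 2.2e-07). The HL-60 values of ITGAX lie in the low range where changes may be understated. CD4, which monocytes also carry, moved in opposite directions, from 12.72, 12.69 and 12.70 to 12.45, 12.50 and 12.46 in HL-60 and from 12.60, 12.59 and 12.63 to 12.91, 12.87 and 12.91 in MOLM-13. Its difference was 0.52 ± 0.029 (adjusted p = 2.3e-10). FCGR2A and NCF4 were the 2 members called lower in MOLM-13, at -0.31 and -0.27. The receptor of granulocyte colony-stimulating factor, CSF3R, differed by 0.22 ± 0.043 (adjusted p = 0.00046).

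Immediate-early genes, the rapid transcription factors and phosphatases induced by growth signals, were higher in MOLM-13 for 16 of 32 tested and lower for 2, with a median of 0.15. The shares of all genes were 17.6% and 22.4%. Quantile normalization gave 14 higher and 3 lower. The median change of the list was -0.056 in HL-60 and 0.086 in MOLM-13. Averaged over the list, the treated HL-60 samples stood at -0.18, -0.16 and -0.17 against their DMSO mean. The treated MOLM-13 samples stood at 0.12, 0.03 and 0.07 and overlapped their DMSO samples, which lay between -0.06 and 0.05. FOS, a subunit of the AP-1 factor, went from 11.10, 10.98 and 11.05 to 10.09, 10.10 and 10.11 in HL-60. In MOLM-13 it measured 13.74, 13.67 and 14.30 with DMSO and 14.30, 14.06 and 14.29 with NTX-301. Those MOLM-13 groups overlapped through replicate 3 of DMSO, which stood above the others, and the difference was 1.25 ± 0.161 (adjusted p = 5.5e-06), or 1.45 without that sample. FOSB, its close relative, went from 9.65, 9.39 and 9.44 to 8.42, 8.59 and 8.43 in HL-60 and from 10.58, 10.44 and 11.32 to 11.28, 10.94 and 11.24 in MOLM-13. The same DMSO sample was again the highest control, and the difference of 1.38 ± 0.241 (adjusted p = 0.00015) became 1.65 without it. NR4A2, an orphan nuclear receptor, differed by 0.98 ± 0.113 (adjusted p = 1.6e-06). Its MOLM-13 groups overlapped through the same DMSO sample, and the difference was 1.10 without it. KLF6 differed by 0.69, ATF3 by 0.48 and EGR1 by 0.44. EGR1 changed by -0.97 in HL-60 and -0.54 in MOLM-13, so here the call marks a smaller negative change. ETV5 and SPRY4, the members called lower in MOLM-13, had changes of 0.40 and 0.30 in HL-60 and of 0.06 and 0.00 in MOLM-13. JUN had 0.30 and 0.32 and was not called. CXCL8, the neutrophil chemokine interleukin 8, went from 14.37, 14.26 and 14.27 to 13.30, 13.35 and 13.24 in HL-60 and from 12.37, 12.27 and 11.91 to 11.98, 12.05 and 11.89 in MOLM-13. The HL-60 samples were clear of their controls, the MOLM-13 samples were not, and the difference was 0.79 ± 0.148 (adjusted p = 0.00031).

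NEAT1, the long noncoding RNA around which paraspeckles form, went from 15.25, 15.23 and 15.16 to 14.90, 14.74 and 14.67 in HL-60 and from 15.27, 15.19 and 15.33 to 16.04, 16.20 and 16.25 in MOLM-13. It ended on opposite sides of its controls in the 2 lines, a difference of 1.34 ± 0.103 (adjusted p = 9.9e-09). MALAT1, its neighbour and another RNA kept in the nucleus, went from 18.44, 18.36 and 18.30 to 18.25, 18.32 and 18.18 in HL-60 and from 17.96, 17.89 and 17.86 to 18.45, 18.47 and 18.48 in MOLM-13. The HL-60 groups overlapped, and the difference was 0.68 ± 0.052 (adjusted p = 9.3e-09). The proteins of paraspeckles did not share this form: NONO had -0.17, PSPC1 -0.15 and MATR3 -0.11, all called lower in MOLM-13, and SFPQ was not called at 0.04.

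The direction of NEAT1 and MALAT1 was common among long noncoding RNAs. Of 1638 tested, 473 (28.9%) were called higher in MOLM-13 and 56 (3.42%) lower, with a median difference of 0.060, while 1897 of 11190 protein-coding genes (17%) were higher and 3293 (29.4%) lower, with a median of -0.033. Level did not remove the contrast. Among genes with a mean log2 value of 9 to 11 in the lower line, 55.3% of 123 long noncoding RNAs and 16.7% of 3166 protein-coding genes were higher in MOLM-13. With quantile normalization within each line the long noncoding RNAs gave 357 higher and 81 lower calls, with a median of 0.032, and the protein-coding genes 2334 higher and 2678 lower, with a median of -0.010. By name, 45 of 160 LINC genes were higher and 5 lower (29 and 6 with quantile normalization), and 42 of 275 antisense genes were higher and 8 lower (32 and 15). Over all genes 17.6% were higher and 22.4% lower. The share called in either direction was 31.2% of LINC genes and 18.2% of antisense genes, below the 40.0% of all genes. The antisense median of 0.030 became 0.0057 with quantile normalization. LINC01004 went from 9.71, 9.61 and 9.75 to 9.66, 9.50 and 9.58 in HL-60 and from 9.85, 9.81 and 9.82 to 10.31, 10.52 and 10.45 in MOLM-13, a difference of 0.71 ± 0.075 (adjusted p = 5.2e-07). LINC00565 was an exception at -0.44. The antisense transcripts CCDC18-AS1 and FAM13A-AS1 differed by 0.57 and 0.49, and because it is not stated whether reads were counted by strand, their reads cannot be told apart from those of the genes they overlap. The small nucleolar RNAs, which guide RNA modification and lie mostly in introns, did not share this lean, with 8 of 312 higher and 29 lower. Their share called was 11.9%, against 40.0% of all genes. Quantile normalization called 33 C/D box and 19 H/ACA box genes lower, in place of 21 and 8.

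**Figure D4:**
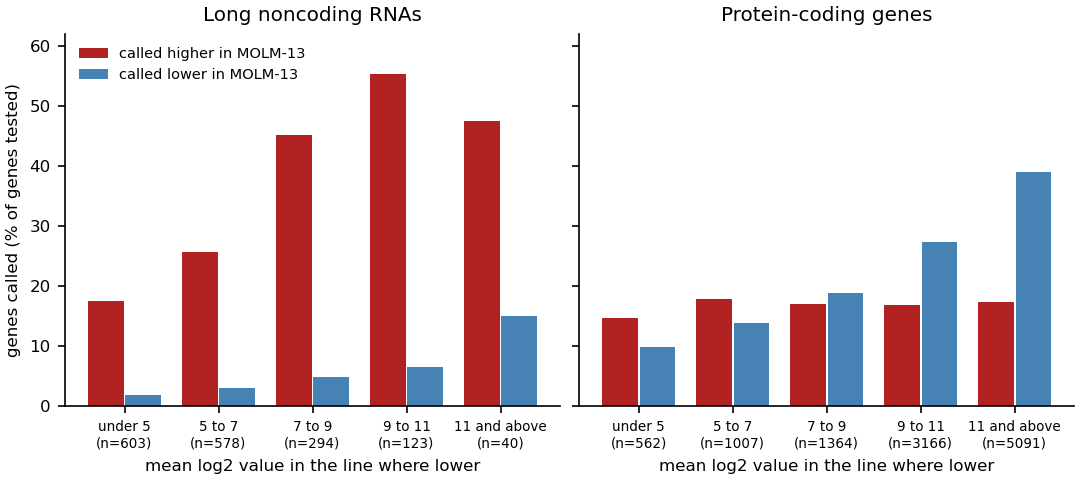
Share of tested genes called higher (red) and lower (blue) in MOLM-13, in percent, for long noncoding RNAs and protein-coding genes, by the mean log2 value in the line where the gene is lower. Red bars exceed blue bars for long noncoding RNAs at every level, from 17.4% against 1.82% to 47.5% against 15.0%, while blue bars lead for protein-coding genes from 7 upward.

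Genes of growth and energy metabolism were mostly lower in MOLM-13. Over all genes tested 22.4% were called lower and 17.6% higher, and among protein-coding genes with a mean of 11 and above 38.9% were called lower. Among mitochondrial ribosomal proteins 53 of 73 were called lower and none higher (median -0.19), and among nuclear-encoded respiratory chain genes 54 of 74 were lower and 1 higher (median -0.18). SDHA, the catalytic subunit of succinate dehydrogenase, went from 12.79, 12.84 and 12.86 to 12.95, 12.96 and 13.01 in HL-60 and from 13.54, 13.55 and 13.60 to 13.46, 13.41 and 13.40 in MOLM-13, a difference of -0.29 ± 0.035 (adjusted p = 3.4e-06). NDUFA9 of complex I differed by -0.32 and MRPL11 of the mitochondrial ribosome by -0.34. The 79 cytosolic ribosomal protein genes stood apart from this, with 5 higher and 6 lower (19 higher and 5 lower with quantile normalization) and a median of -0.024 that became 0.027. Genes that build ribosomes were lower for 19 of 32 and higher for none (median -0.12), NOP56 at -0.29 among them. That normalization called 39 mitochondrial ribosomal protein genes, 35 respiratory chain genes and 12 ribosome biogenesis genes lower. Among spliceosome, SR and hnRNP proteins 37 of 58 were lower and 7 higher (median -0.12), or 27 and 8 with quantile normalization. SNRPB, a core protein of the spliceosomal small ribonucleoproteins, went from 14.94, 14.98 and 14.97 to 14.59, 14.59 and 14.57 in MOLM-13 and from 13.88, 13.93 and 13.99 to 13.98, 13.99 and 14.01 in HL-60, a difference of -0.44 ± 0.039 (adjusted p = 5.7e-08). The exceptions were SF1, SRSF8, SRSF11, TRA2A, HNRNPA3, RBM39 and PRPF8, higher in MOLM-13 by 0.09 to 0.20.

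Heat shock chaperones were lower in MOLM-13 for 17 of 20 and higher for none, with a median of -0.24 (13 lower with quantile normalization). For this and the next lists the shares of all genes are again 22.4% lower and 17.6% higher. Those of protein-coding genes are 29.4% lower and 17% higher, with 38.9% lower at a mean of 11 and above. With quantile normalization 2946 of all 15474 genes were lower and 2950 higher. The mitochondrial cochaperonin HSPE1 had -0.47 and the HSP110 gene HSPH1 -0.40. FKBP4, an HSP90 cochaperone, went from 13.37, 13.38 and 13.40 to 13.05, 13 and 13.03 in MOLM-13, and its HL-60 groups, 13.66, 13.72 and 13.71 against 13.67, 13.69 and 13.75, overlapped. Its difference was -0.37 ± 0.032 (adjusted p = 3.7e-08). Sterol and fatty acid synthesis genes were lower for 23 of 33 and higher for 2 (median -0.20), or 21 and 3 with quantile normalization. On this list both lines had negative median changes, -0.11 (HL-60) and -0.36 (MOLM-13), and 8 members did not pass, among them FASN (-0.47 and -0.48) and MVD (-0.47 and -0.42). FADS1, the delta-5 desaturase, moved in opposite directions, from 10.27, 10.08 and 10.05 to 10.45, 10.41 and 10.43 in HL-60 and from 11.01, 11 and 11.09 to 10.54, 10.41 and 10.51 in MOLM-13. Its difference was -0.84 ± 0.069 (adjusted p = 2.2e-08). Of 21 genes of the ATF4 and serine synthesis list 12 were lower and 5 higher, the latter from 2 to 5 when any 1 of the 12 samples was left out and 2 with quantile normalization. PHGDH, which starts serine synthesis, differed by -0.51 ± 0.039 and ASNS, asparagine synthetase, by -0.51 ± 0.072, while ATF5 and SLC7A11 differed by 0.35 and 0.22. Cytosolic tRNA synthetases were lower for 15 of 20 and higher for 2 (11 and 4 with quantile normalization). Among 24 glycolysis genes 14 were lower and 4 higher (13 and 6 with quantile normalization). They were led by the glucose transporter SLC2A3 at -0.87 and the hexokinases HK1 and HK3 at -0.63 and -0.61, all of which rose in HL-60, by 0.87, 0.74 and 1.16.

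Genes of DNA methylation, the process the drug acts on, were lower in MOLM-13 for 9 of 17 and higher for 2 (7 and 4 with quantile normalization). The shares were 22.4% and 17.6% among all genes and 29.4% and 17% among protein-coding genes. DNMT1 went from 14.27, 14.30 and 14.35 to 14.35, 14.39 and 14.39 in HL-60, with groups that touched, and from 14.58, 14.51 and 14.53 to 14.28, 14.29 and 14.27 in MOLM-13. Its difference was -0.32 ± 0.031 (adjusted p = 1.9e-07). UHRF1, which brings DNMT1 to sites methylated on a single strand, went from 14.34, 14.26 and 14.31 to 13.81, 13.79 and 13.80 in MOLM-13 and from 13.88, 13.83 and 13.91 to 13.77, 13.79 and 13.83 in HL-60, a difference of -0.43 ± 0.035 (adjusted p = 2.3e-08). The de novo enzyme DNMT3B went from 8.42, 8.50 and 8.48 to 9.03, 9.07 and 8.99 in HL-60 and from 10.63, 10.73 and 10.63 to 10.49, 10.58 and 10.53 in MOLM-13, opposite movement with a difference of -0.70 ± 0.065 (adjusted p = 1.1e-07). DNMT3A, the other de novo enzyme, did not pass at 0.13 ± 0.068 (adjusted p = 0.134), though with quantile normalization its 0.22 did (adjusted p = 0.0193). The demethylating TET2 and TET3 were higher in MOLM-13 by 0.14 and 0.21.

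Genes that take up and process nucleosides are known to set sensitivity to decitabine. On this list 7 of 19 were lower in MOLM-13 and 1 higher (4 higher with quantile normalization), a share called of 42.1%, near the 40.0% of all genes. DCK, the kinase that activates deoxycytidine drugs, differed by -0.18 ± 0.048 (adjusted p = 0.0054), and the uptake carrier SLC29A1 by -0.23 ± 0.051 (adjusted p = 0.0014). SAMHD1, which breaks down deoxynucleotides, had 0.11 ± 0.057 and did not pass (adjusted p = 0.119), but passed with quantile normalization (0.19, adjusted p = 0.0118) and when either replicate 3 of HL-60 was left out. CDA, cytidine deaminase, was listed for MOLM-13 alone. ADA, adenosine deaminase, was the member called higher and went from 11.39, 11.44 and 11.46 to 11.14, 11.09 and 11.08 in HL-60 and from 11.12, 11.07 and 11.11 to 11.58, 11.58 and 11.56 in MOLM-13. Its groups were apart in both lines in opposite directions, a difference of 0.80 ± 0.037 (adjusted p = 2.7e-11).

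Interferon-stimulated genes, which are known to respond to loss of DNA methylation, were called in either direction in 33.3%, near the 40.0% of all genes. Of 36 tested 4 were higher and 8 lower in MOLM-13, with a median of 0.014, and both lines had positive median changes, 0.11 in HL-60 and 0.14 in MOLM-13. BST2, tetherin, went from 7.96, 8.04 and 8.04 to 8.77, 8.83 and 8.75 in HL-60 and from 12, 11.94 and 12.07 to 12.10, 12.02 and 12.06 in MOLM-13. The HL-60 samples were clear of their controls, the MOLM-13 samples overlapped, and the difference was -0.72 ± 0.058 (adjusted p = 1.9e-08). TRIM22, an antiviral gene, went from 12.43, 12.50 and 12.45 to 13.05, 13.05 and 13.02 in MOLM-13 and from 10.16, 10.20 and 10.15 to 10.06, 10.12 and 10.14 in HL-60, a difference of 0.64 ± 0.041 (adjusted p = 9.2e-10). IFI16 and GBP2 changed by like amounts in both lines, 0.40 and 0.39, and 0.50 and 0.52, and were not called. An interferon-stimulated response element stood in 13 of 27 interferon gene windows (48.1%) and in 3.07% of all windows, counted on both strands of the same 250 bases. The BST2 window, minus strand at chr19:17405631-17405880 (GRCh38.p14), is shown because BST2 has the lowest difference of the list and carries 2 overlapping copies, in capitals.
BST2: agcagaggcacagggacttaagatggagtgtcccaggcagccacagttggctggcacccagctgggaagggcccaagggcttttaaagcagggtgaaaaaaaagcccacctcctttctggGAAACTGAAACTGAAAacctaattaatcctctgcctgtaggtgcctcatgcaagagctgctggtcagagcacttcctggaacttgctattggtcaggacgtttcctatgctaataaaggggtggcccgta

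Signalling and survival genes were mixed. The share called in either direction was 61.5% of STAT5 targets, 64.3% of the BCL2 family and 57.9% of the KMT2A list. It was 47.6% of the NF-kB list and 57.9% of MHC class I genes, against 40.0% of all genes. Among 13 STAT5 targets 6 were lower and 2 higher in MOLM-13, with CCND3, a cyclin of G1, at -0.73 ± 0.036 and the repressor BCL6 at 0.55 ± 0.068. CCND3 went from 11.40, 11.49 and 11.45 to 12.08, 12.06 and 12.01 in HL-60 and from 13.62, 13.63 and 13.63 to 13.52, 13.48 and 13.49 in MOLM-13. Among 14 genes of the BCL2 family 5 were higher and 4 lower. MCL1, an inhibitor of apoptosis, had 0.30 ± 0.038, with a change of -0.39 (HL-60) and -0.09 (MOLM-13), and the killer protein BIK had -0.71 ± 0.086. Of 19 KMT2A leukaemia and stem cell genes 7 were lower and 4 higher, with a median of -0.048 that became 0.0054 with quantile normalization. FLT3 had a small difference, -0.13 ± 0.037 (adjusted p = 0.0085), which was -0.02 with quantile normalization (adjusted p = 0.658). NF-kB and chemokine genes had 4 higher and 6 lower of 21, with TNFAIP3 at -0.49 and NFKBIA at 0.50. The 45 lysosomal genes had 12 higher and 6 lower (18 and 2 with quantile normalization), the same 40.0% called as among all genes, and the 19 MHC class I genes 6 higher and 5 lower (9 and 3). The lists had medians of 0.034 and -0.0046, whose sign turned to -0.0040 without MOLM-13 DMSO replicate 1 and to 0.0693 with quantile normalization, respectively. The 407 ZNF genes had 79 higher and 39 lower, a share called of 29% that is below that of all genes, and the 3 germline genes that were tested had no call.

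The same difference between lines was formed for DAC and subtracted, which leaves the 12 drug-treated samples and removes DMSO. This value passed for 2745 genes, 17.7% of those tested, 1289 higher (8.33%) and 1456 lower (9.41%). The split depended on scaling, since centring each sample on its median gave 2042 higher and 1143 lower. Replication genes were lower for 30 of 41 and higher for none (23 of 41 after centring), and G2 and mitosis genes for 25 of 35 and none (23 after centring), so the contrast between lines was wider with NTX-301 than with DAC for most of them. Granule proteins were higher for 11 of 16 and lower for 3, sterol genes higher for 13 of 33 and lower for 1, and monocyte genes lower for 10 of 20 and higher for 1. Of the DNA damage response genes 7 of 30 were higher and 3 lower, and of the histones 5 of 49 were higher and 4 lower. Whether the NTX-301 and DAC doses were equal within a line is not settled by the labels, so drug and dose cannot be told apart here.

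The genes with the highest and lowest values mostly marked HL-60 samples. GCNA, a germ cell gene, measured 9.28, 9.32 and 9.33 in HL-60 with DAC and 7.77, 7.93 and 7.89 with NTX-301, against 7.73, 7.57 and 7.68 and 7.61, 7.74 and 7.76 in MOLM-13. Only the HL-60 samples with DAC stood apart, and the value was 1.49 ± 0.075 (adjusted p = 3.9e-10). TTN-AS1 (0.91) and DCAF4L1 (0.73) had the same form. AHNAK measured 12.35, 12.28 and 12.37 in HL-60 with DAC and 13.26, 13.26 and 13.25 with NTX-301, against 16.65, 16.62 and 16.62 and 16.67, 16.63 and 16.66 in MOLM-13, a value of -0.90 ± 0.037 (adjusted p = 2.3e-11). FSCN1 measured 6.81, 6.72 and 6.70 in HL-60 with DAC and 7.55, 7.58 and 7.55 with NTX-301, a value of -0.93 ± 0.068 (adjusted p = 4.2e-08). Here the HL-60 samples with NTX-301 stood apart from those with DAC. RHEX had -0.78, made of a line difference of -1.85 with NTX-301 and -1.06 with DAC, and SLC2A3 had -0.76, made of -0.87 and -0.11. NLRC3, an inhibitory member of the NLR family, had -0.86, with line differences of opposite sign, -0.54 with NTX-301 and 0.32 with DAC. NEAT1 had 0.67, made of 1.34 and 0.66, and CXCL8 0.77, made of 0.79 and 0.01.

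**Figure D5:**
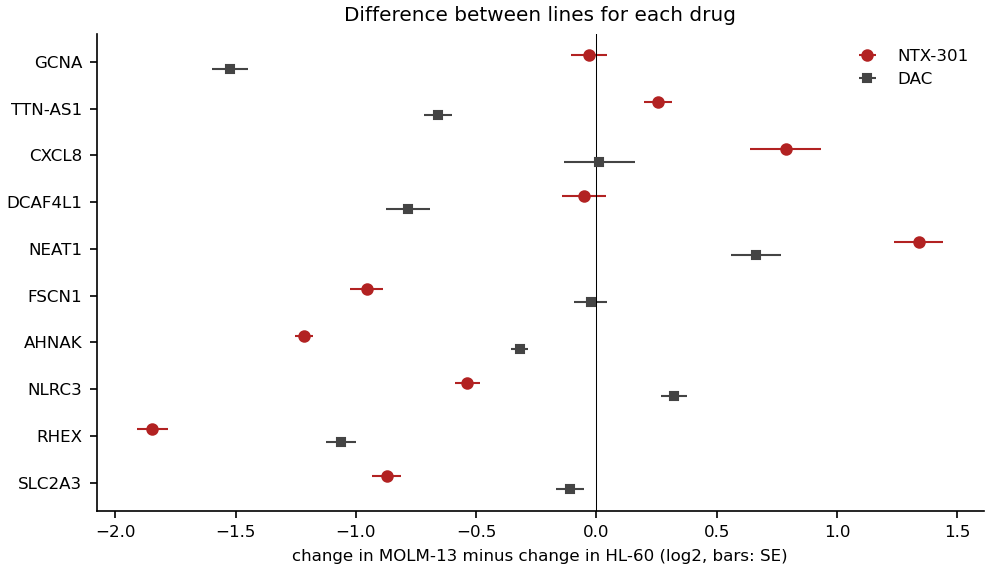
Difference between lines (drug minus DMSO in MOLM-13, less drug minus DMSO in HL-60, log2, bars SE) for NTX-301 (red circles) and DAC (dark squares) for 5 genes at the top and 5 at the bottom of the NTX-301 minus DAC values. The 2 drugs share their DMSO samples, GCNA has -1.52 with DAC and -0.03 with NTX-301, and FSCN1 has -0.02 with DAC and -0.96 with NTX-301.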

How the data were processed

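RNA of 18 samples was sequenced by the authors from stranded total RNA libraries. The submitters' processing notes name FastQC, Trimmomatic 0.38, HISAT2, StringTie and the build hg19, and the step that made the log2 values is not given in the sources used here. Each deposited file holds 1 column of log2 values, which the authors normalized, apparently once per line, so that levels are not on one scale between lines. Changes within a line were compared as they stand, although those at low levels may be understated. Only differences of such changes were tested.

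Symbols in the files of both lines were kept where the linear value was at least 1 in at least 3 samples of each line. Group means of all 18 samples were fitted with limma 3.58.1 in R 4.3.3 (empirical Bayes with a mean-variance trend, 12 residual degrees of freedom), with Benjamini-Hochberg adjustment across the whole table and a call at adjusted p under 0.05. SE is limma's moderated standard error. Named genes are the 15 highest and 15 lowest differences with a mean log2 of at least 6 in a group of each line that passed in every fit leaving out 1 of 12 samples (readthrough, ribosomal RNA, LOC and small nucleolar RNA genes left out), the 5 highest and 5 lowest against DAC, the 2 members of each of 37 lists with the lowest adjusted p, and 14 genes fixed by name. Other members named with values were chosen after their values were seen. The members and lists were chosen with earlier results of these data known. A few genes are not reported here.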

Additional observations from a re-analysis of the deposited data

Results flagged for a closer look

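The NTX-301 change differed between the lines by its own test (limma, adjusted p under 0.05) in 6185 genes, and the line difference was not the same for NTX-301 and DAC in 2745 genes. Among the genes kept by the naming rule the 5 highest differences between lines were those of FOSB (1.38), NEAT1 (1.34), FOS (1.25), FCAR (1.18) and CYFIP2 (0.98), and the 5 lowest those of EPX (-1.98), RHEX (-1.85), IKZF2 (-1.37), AHNAK (-1.22) and GATA2 (-1.14), each tested as a difference of the 2 changes. EPX and IKZF2 passed with overlapping MOLM-13 groups. FOS and FOSB rest on MOLM-13 controls that include 1 high sample, whose part in the result is the rise to 1.45 and 1.65 without it.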

How the results depend on the processing

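No gene called in the main fit was called with the opposite sign under an alternative. GCNA and DCAF4L1, named by the rule against DAC, had no called difference between lines, and their small values turned sign. Leaving out 1 sample took GCNA from -0.0305 to as high as 0.0172 and DCAF4L1 from -0.0497 to as high as 0.0081. Splits of calls changed too: quantile normalization within each line gave 2950 higher and 2946 lower calls in place of 2716 and 3469, and 19 higher and 5 lower among ribosomal proteins in place of 5 and 6. The 6185 calls ranged from 5556 to 6205 over the fits that left out 1 sample, and between 5896 and 6252 over the other scalings, filters and variance models, except that restricting the test to genes with a mean of at least 10 in both lines gave 4055 calls (1354 of them higher in MOLM-13) and requiring a size of at least 0.5 gave 394 (173 higher and 221 lower). Quantile normalization kept 80.5% of the main calls and the fits without 1 sample between 87.7% and 93.1%, none with the opposite sign. Centring each sample on its median gave 2042 higher and 1143 lower values for NTX-301 against DAC in place of 1289 and 1456. Replicate numbers did not pair the samples (correlations of same-numbered deviations from -0.047 to 0.079), and the fit with a replicate block within each line gave 5962 calls for the difference between lines and 2450 for that against DAC. FLT3 lost its call with quantile normalization, and CD74, DNMT3A and SAMHD1 gained one. Leaving out 1 sample gave 2 to 12 lower calls among ribosomal proteins (12 without MOLM-13 DMSO replicate 1), 3 to 9 among lysosomal genes and 12 to 27 among C/D box small nucleolar RNAs, while all 41 replication and all 35 mitotic genes were called in each. Depth is unknown, so no limit from counting error can be given.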

Other observations

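Genes outside the lists were also among those with the highest differences. SBF2, a phosphatase-like regulator of membrane traffic, went from 11, 11 and 11.07 to 11.50, 11.59 and 11.62 in MOLM-13 and from 11.55, 11.35 and 11.42 to 11.20, 11.21 and 11.12 in HL-60, a difference of 0.81 ± 0.060 (adjusted p = 6.0e-09). GAPT, an adaptor of B cells and myeloid cells, went from 9.11, 9.23 and 9.24 to 9.68, 9.80 and 9.62 in MOLM-13 and from 11.20, 11.17 and 11.12 to 10.89, 10.86 and 10.86 in HL-60, a difference of 0.80 ± 0.059 (adjusted p = 6.0e-09). In both genes treated and control samples were apart in each line and moved in opposite directions. The dynein gene DNAH1 (0.81), C22orf34 (0.79) and the growth factor gene NRG4 (0.77) complete the named genes of this direction, with the pseudogene PDCL3P2 (0.90), whose reads may be shared with its parent gene.

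Among long noncoding RNAs, those with a LOC symbol were called higher in MOLM-13 in 308 of 925 and lower in 26, and those with another symbol in 165 of 713 and 30. The shares of all genes were 17.6% higher and 22.4% lower. The gene with the highest fitted difference of all, the readthrough transcript BLOC1S5-TXNDC5 (2.29 ± 0.95), did not pass (adjusted p = 0.0631), and the ribosomal RNA gene RNA28SN3 (2.07 ± 0.70, adjusted p = 0.0247) passed in 7 of the 12 fits without 1 sample. Both were left out of the named genes by rule.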
